A study of Mus musculus with 12 samples.

Results

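RNA-seq libraries of the apical and the basal turn of the cochlea of 35delG homozygous mice were compared at P14. The comparison rests on 4 of the 12 libraries of the study, 2 biological repeats of the apex and 2 of the base, taken by their labels. It was tested over 14677 of the 37432 genes in the table, those with an FPKM of at least 1 in 2 or more of these 4 libraries. The study made such libraries from the apical, middle and basal turn of wild-type and 35delG homozygous males, with each cochlea cut into 3 sections. Homozygous mice carry the 35delG deletion on both copies of Gjb2, which the labels call KO, and they were grown from male embryonic stem cells by tetraploid complementation on an almost pure C57BL/6J background. Pups came from cesarean deliveries and had ICR foster mothers, while age-matched wild-type males were bought, so genotype and origin of the mice go together. The sources used here give neither the number of mice or cochleae behind a library nor which of several stem cell lines the sequenced mice came from, so the p-values measure only the spread between these libraries. The filter can be passed through 1 turn alone, so a gene near 0 in the other turn enters because it is high in the first.

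The cochlea is a coiled tube in which low sounds are sensed at the apex and high sounds at the base. Inner and outer hair cells turn the movement of the tectorial membrane above them into receptor potentials, supporting cells and spiral ligament fibrocytes carry potassium away from them, the stria vascularis secretes it into the endolymph, and spiral ganglion neurons in the bony core send the signal to the brainstem through the auditory nerve. Connexin 26, the product of Gjb2, builds gap junctions between supporting cells and between fibrocytes together with connexin 30, the product of Gjb6, and 35delG shifts the reading frame close to its start.

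The edited stretch is shown since it defines the genotype of the 4 libraries. It lies in the second of the 2 exons of Gjb2, at chr14:57100691-57100732 of GRCm38, read here from the strand of the gene (minus), and holds coding bases 18 to 59. The capitals in the reference mark the run of 5 G at coding bases 31 to 35, those in the repair template primer the run of 4 G that replaces it, and those behind the guide the neighbouring PAM of the reference on the plus strand, and the guide with its PAM spans chr14:57100701-57100723.
reference: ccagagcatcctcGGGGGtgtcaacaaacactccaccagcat
repair template primer: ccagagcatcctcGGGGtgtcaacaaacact
guide with PAM: agtgtttgttgacacccccgAGG

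Gjb2 was read in every library of both genotypes, and FPKM do not show which allele was read. Its scaled FPKM (FPKM divided by a factor per library that makes libraries comparable) were 332 and 376 in the homozygous apex, 256 and 451 in the middle turn, and 126 and 58.6 in the base. In wild-type mice they were 248 and 254 in the apex and 434 and 256 in the base. Gjb2 was thus lower in both homozygous basal libraries than in any other of these, by 2.02 ± 0.47 (SE) on the log2(scaled FPKM + 1) scale against the homozygous apex, with an adjusted p of 0.0182 in limma. Gjb6 read 283 and 379 in the homozygous apex and 166 and 154 in the base, a difference of −1.03 ± 0.28 (SE) with an adjusted p of 0.0311. Both miss the limit of 0.01 used for a call in what follows.

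The homozygous basal libraries stood apart from the other homozygous libraries before any gene was tested. In principal components over the 14677 genes, component 1 carried 46.2% of the variance and placed the basal repeats at 66.6 and 86.0, the apical repeats at −41.9 and −23.8 and the homozygous middle turn at −21.5 and −49.3. The wild-type turns did not follow the same order, with the middle turn at 40.7 and 22.2 and the base at −52.6 and 8.0. The Euclidean distance between the homozygous basal repeats was 71.0, and each lay 106 to 138 from the apical libraries. The homozygous basal libraries were 77.3 to 96.1 from the wild-type middle libraries. From the wild-type basal ones they were 101 to 150.1, so they were nearer to the former. Each wild-type basal library in turn had a homozygous middle library as its nearest neighbour, at 69.2 and 66.0. The wild-type basal repeats lay 99.1 from each other. The homozygous apical libraries had a homozygous middle library, repeat 2, as their nearest neighbour, at 43.5 and 49.0. The cause of this order was not tested, nor whether every section carries the label of its turn, and all comparisons of turns and genotypes rest on these labels.

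**Figure D1:**
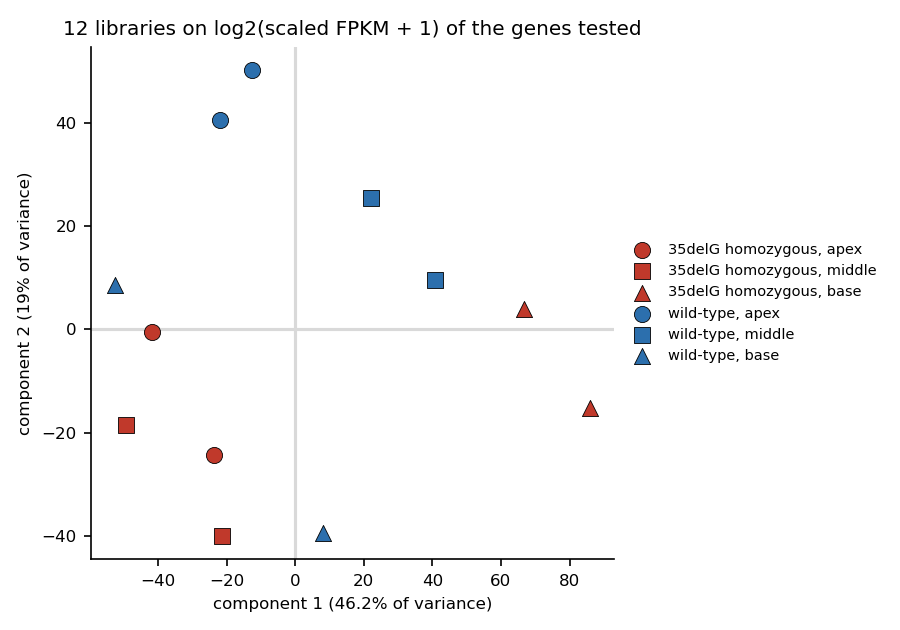
The 12 libraries on the first 2 principal components of log2(scaled FPKM + 1) over the genes tested; colour gives the genotype, marker shape the turn, and each point is 1 library. The 2 homozygous basal libraries lie at 66.6 and 86.0 on component 1, beyond every other library.

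The repeats differed from each other by less in the apex than in the base. The median absolute difference between repeats was 0.232 on the log2 scale in the homozygous apex, 0.305 in the homozygous base, 0.135 in the wild-type apex and 0.343 in the wild-type base. No steps of single reads are visible in the FPKM, which leaves the depth behind a value unknown, and a value of 0 is given as listed at 0. Libraries held between 13729 and 14703 genes at 1 FPKM or more. All genes of the mitochondrial genome together took between 7.32 and 12.1% of the FPKM of the 4 libraries.

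Genes called higher in the homozygous base included 5 of 27 neuronal, 10 of 32 synaptic vesicle and 7 of 22 myelin genes tested, and those called higher in the apex included 5 of 6 tectorial membrane and 10 of 32 hair cell genes. Calls rest on limma on log2(scaled FPKM + 1), with a Benjamini-Hochberg adjusted p below 0.01 and more than a 2-fold difference. Of the 14677 genes, 373 were called higher in the base (2.54%) and 404 higher in the apex (2.75%). At an adjusted p under 0.05 the counts were 1074 (7.32%) and 983 (6.70%), and 5166 genes had an unadjusted p under 0.05. The median difference of all genes was −0.00, which the scaling of the libraries fixes near 0. The calls at 0.01 depend on the full set of libraries: without homozygous apical repeat 1 or 2, homozygous basal repeat 2, or wild-type apical repeat 1 or 2, which enter through the shared estimate of the spread, 0 genes remained higher in the base and between 0 and 5 higher in the apex. At 0.05 the counts with 1 library left out were 82 to 1256 for the base and 137 to 1167 for the apex, lowest in both cases without homozygous apical repeat 1. An exact permutation of 2 against 2 libraries cannot go below a p of 0.333.

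Sgpp2, a phosphatase of sphingosine-1-phosphate, had the largest difference towards the base of the called genes whose turns did not overlap and whose higher turn averaged 5 scaled FPKM or more. It read 3.83 and 4.86 in the apex and 49.6 and 39.9 in the base, a log2 difference of 3.10 ± 0.43 (SE, adjusted p = 0.00488, limma). Kif5a, a kinesin motor of axonal transport, read 9.15 and 10.5 in the apex and 94.4 and 67.8 in the base (2.90 ± 0.40, adjusted p = 0.00488). In both genes the homozygous middle turn, with 5.68 and 2.03 for Sgpp2 and 10.9 and 8.05 for Kif5a, lay with the apex and far from the base. Mapk10, the neuronal Jun kinase, read 2.77 and 4.01 against 42.3 and 29.2 (3.06 ± 0.58, adjusted p = 0.00982). Kcnt1, a sodium-activated potassium channel, read 0.943 and 1.63 against 13.7 and 16.4 (2.83 ± 0.31, adjusted p = 0.00397). Among the 12 genes of this kind are also Tmem59l, Reep1, Lsamp, Rcan2, Syngr3, Rufy3 and Ggt7, with log2 differences of 2.80 to 3.10 over the whole set. Lsamp is an adhesion protein of the neuronal surface, Reep1 shapes the endoplasmic reticulum of axons, Rcan2 inhibits calcineurin and Syngr3 is a protein of synaptic vesicles.

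Tectb, which encodes beta-tectorin of the tectorial membrane, had the largest difference of all called genes of this rule. It read 368 and 269 in the apex, 29.7 and 49.9 in the middle turn and 0.0853 and 0.0484 in the base, a log2 difference of −8.21 ± 0.89 (SE, adjusted p = 0.00397, limma). The wild-type libraries had the same direction without a call, with 63.1 and 84.7 in the apex, and 10.6 in basal repeat 2, while basal repeat 1 is listed at 0 (adjusted p = 0.0607). Epyc, a small proteoglycan of supporting cells, read 1497 and 988 in the apex and 61.8 and 1.39 in the base (−6.63 ± 1.24, adjusted p = 0.00946). Ocm, oncomodulin, the calcium buffer of outer hair cells, read 221 and 219 against 3.15 and 0.388 (−6.53 ± 1.09, adjusted p = 0.00708). The basal repeats of Epyc and Ocm differ far more than the apical ones, and still do not reach them. Otogl and Otog, otogelins of the acellular membranes, had the smallest adjusted p of these genes, 0.000684 in both. Otog read 63.9 and 33.1 against 0.126 and 0.0539 (−5.43 ± 0.34) and Otogl 62.8 and 37.0 against 0.383 and 0.0469 (−5.35 ± 0.32). Ush1c, harmonin of the hair bundle, read 39.6 and 21.8 against 0.390 and 0.102 (−4.62 ± 0.38, adjusted p = 0.0025). Ces1d, Mia, Tecta, Fcrlb, BC006965 and Emilin2 complete the 12 genes, whose log2 differences run from −8.21 to −4.62.

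**Figure D2:**
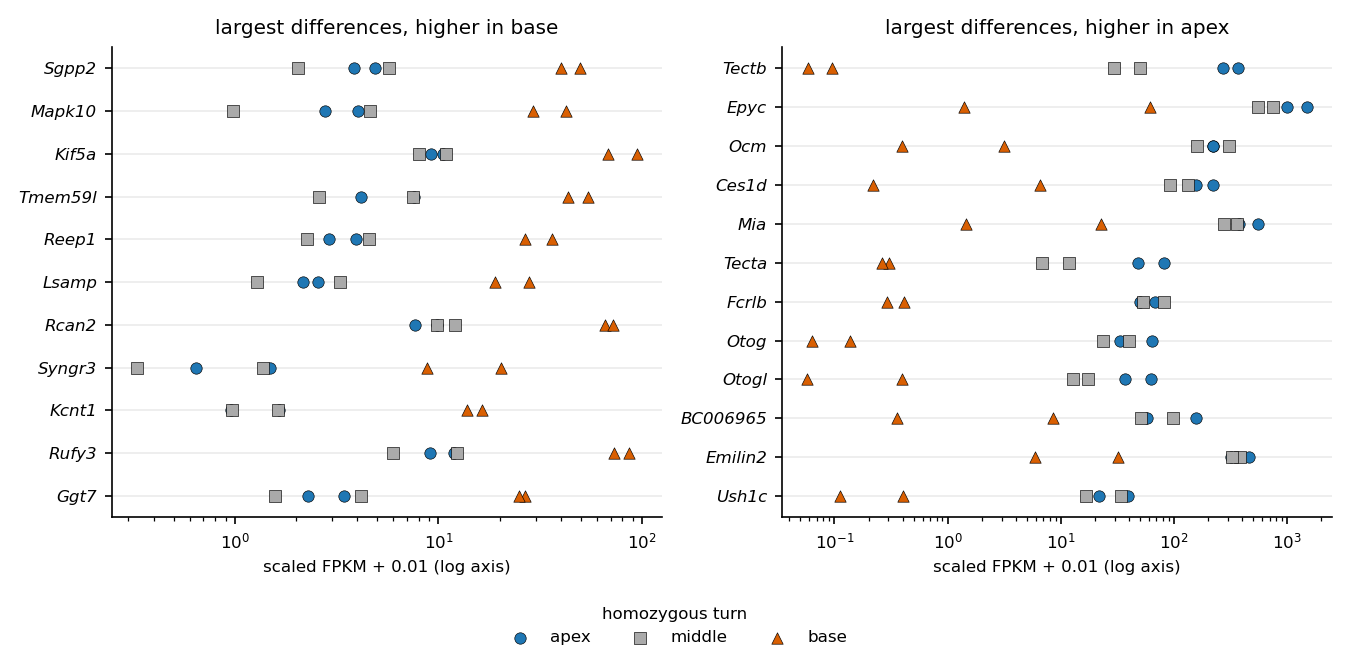
Scaled FPKM plus 0.01, on a log axis, of 11 of the 12 genes with the largest differences towards the base and of the 12 towards the apex, in the 6 homozygous libraries; each point is 1 library, and colour and shape give the turn. In every row the basal points are apart from the apical ones, and the middle turn lies on the apical side.

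The promoters of leading genes are printed as the reference sequence around the start sites of genes called in these libraries. They are from RefSeq on GRCm38.p6, each 300 bases from 250 before to 50 after the start, in the direction of the gene, and capitals mark matches to TATAAA or GGGCGG on either strand, which do not overlap here. Tectb (chr19:55180476-55180775, plus strand) and Sgpp2 (chr1:78310096-78310395, plus strand) have the largest difference in each direction under the rule given above for called genes. Otog (chr7:46240737-46241036, plus strand) and Ush1c (chr7:46238441-46238740, minus strand) are neighbours that are transcribed away from each other, with 2483 bases between their starts, and both were called higher in the apex.
Tectb: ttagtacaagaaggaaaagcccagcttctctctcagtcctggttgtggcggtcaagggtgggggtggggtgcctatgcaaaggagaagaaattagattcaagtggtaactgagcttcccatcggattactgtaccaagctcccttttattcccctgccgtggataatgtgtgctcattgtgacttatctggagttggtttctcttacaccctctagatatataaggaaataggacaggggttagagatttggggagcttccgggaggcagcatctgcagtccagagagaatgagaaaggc
Otog: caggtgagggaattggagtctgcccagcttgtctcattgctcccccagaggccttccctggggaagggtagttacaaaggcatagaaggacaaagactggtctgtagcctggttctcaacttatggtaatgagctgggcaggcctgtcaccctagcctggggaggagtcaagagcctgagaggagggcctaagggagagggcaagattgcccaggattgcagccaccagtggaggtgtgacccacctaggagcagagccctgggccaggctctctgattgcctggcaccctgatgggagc
Ush1c: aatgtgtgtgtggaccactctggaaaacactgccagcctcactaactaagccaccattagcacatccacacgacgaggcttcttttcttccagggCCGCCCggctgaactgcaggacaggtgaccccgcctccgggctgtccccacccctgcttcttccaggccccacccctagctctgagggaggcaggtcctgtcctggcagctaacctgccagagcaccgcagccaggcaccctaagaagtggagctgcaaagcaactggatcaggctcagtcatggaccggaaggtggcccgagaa
Sgpp2: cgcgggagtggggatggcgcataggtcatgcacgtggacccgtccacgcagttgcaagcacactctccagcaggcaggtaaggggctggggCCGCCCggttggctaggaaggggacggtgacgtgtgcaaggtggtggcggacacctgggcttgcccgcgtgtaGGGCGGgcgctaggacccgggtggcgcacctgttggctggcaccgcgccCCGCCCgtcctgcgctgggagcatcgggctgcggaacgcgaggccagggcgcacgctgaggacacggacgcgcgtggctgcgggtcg
The Sgpp2 promoter holds 34 CG pairs and 3 matches to GGGCGG, that of Ush1c 9 CG pairs and 1 match, that of Tectb 4 CG pairs and no match, and that of Otog no CG pair and no match. A promoter was found for 281 of the genes called higher in the base, 306 of those called higher in the apex and 10760 of all genes tested (73.3%). GGGCGG occurred in 63.7% of the promoters of genes higher in the base, 60.5% of those higher in the apex and 65.0% of all, and TATAAA in 3.91%, 8.82% and 6.99%. The median number of CG pairs was 20, 14 and 21 in the same order, so the apical genes had fewer than all genes while the basal genes were near them. The median span from start to end of the gene was 40708 bases for genes higher in the base, 21272 for those higher in the apex and 21035 for all. These are descriptions of the genes called, without a test.

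Tectorial membrane genes had the largest median difference of all lists. The list holds 6 genes, all tested, of which 5 were called higher in the apex, Tectb, Tecta, Otogl, Otog and Otoa. All 6 lay lower in both basal libraries than in both apical ones, as did 30.4% of all genes. Their median log2 difference was −5.39 in homozygous and −1.27 in wild-type mice, beside −0.00 and −0.03 over all genes. Tecta, alpha-tectorin, read 81.3 and 47.8 in the homozygous apex and 0.295 and 0.254 in the base. In the wild-type apex it read only 0.785 and 0.678, so its level in the homozygous apex was above that of either wild-type turn. Ceacam16, a secreted adhesion protein of the same membrane, read 127 and 101 in the homozygous apex and 10.1 and 1.02 in the base (adjusted p = 0.0101), and 2046 and 2168 in the wild-type apex. Otoa, otoancorin, which fixes the membrane to the cells below, read 65.8 and 17.2 against 1.06 and 0.480. The summed level of the list was 769 and 505 in the homozygous apex and 12.1 and 1.90 in the base, against 2480 and 472 in the wild-type base.

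Hair cell genes were higher in the homozygous apex in most cases. Of 35 listed genes 32 were tested, 10 were called higher in the apex and none higher in the base, and 28 lay lower in both basal libraries (30.4% of all genes did). At an adjusted p under 0.05 the count was 21 (6.70% of all genes). Slc26a5, prestin, the motor of outer hair cells, read 18.5 and 12.5 in the apex, and 0.0509 in basal repeat 1 and listed at 0 in basal repeat 2 (adjusted p = 0.00279). Otof, otoferlin of the ribbon synapse, read 23.7 and 13.9 against 0.0982 and 0.109 (−4.12, adjusted p = 0.00359). Strc, stereocilin, read 14.6 and 9.37 against 0.0671 and 0.0765, and Chrna10, an efferent acetylcholine receptor subunit of outer hair cells, 13.6 and 10.1 against 0.0562 and 0.199. The transcription factor Pou4f3 read 8.58 and 7.62 in the apex, and was listed at 0 and at 0.439 in the base. Defining hair cell markers were therefore at or near 0 in the basal libraries. Other members differed by less. Myo6, an unconventional myosin, read 54.0 and 39.5 against 24.8 and 17.3 (adjusted p = 0.0185), and Cib2, a subunit of the transduction complex, 33.4 and 35.7 against 28.5 and 35.6 (adjusted p = 0.903). The wild-type base kept more of these transcripts, with 32.2 and 20.7 for Otof and 13.3 and 7.77 for Pou4f3, but 0.594 and 1.44 for Slc26a5. The summed level of the list was 558 and 465 in the homozygous apex, 365 and 617 in the middle turn, 92.4 and 98.5 in the base, and 349.5 and 331 in the wild-type base. The wild-type middle turn had 123 and 278. The study's immunostaining at P14 found hair cells and the supporting cells around them intact, without a significant difference in number between genotypes. Whether the sequenced sections held as many of these cells was not tested. In pieces of whole tissue, fewer cells of a type, a smaller share of their tissue in the piece and less RNA per cell cannot be told apart. This holds here and in all lists below.

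Supporting cell genes changed in part. Of 19 genes 18 were tested, and 5 were called higher in the apex, Epyc, Fgfr3, Otol1, Jag1 and Npy. In both basal libraries 13 lay below the apex and 4 above it, beside 30.4 and 30.3% of all genes. At an adjusted p under 0.05 in limma, 9 passed towards the apex and 1 towards the base, beside 6.70 and 7.32% of all genes. Fgfr3, the growth factor receptor of pillar and Deiters' cells, read 34.4 and 22.4 against 4.34 and 3.79 (−2.51, adjusted p = 0.00359). Jag1, the Notch ligand of supporting cells, read 20.1 and 11.1 against 1.71 and 2.01 (−2.49, adjusted p = 0.00516). S100b, a calcium binding protein also made by glia, read 1477 and 2167 against 1034 and 417 (adjusted p = 0.122). The list's median was −1.40 in homozygous and −1.14 in wild-type mice, but members went both ways, the median difference between genotypes was −0.90, and Hey2, a Notch target, was called in it (0.85 in homozygous and −1.28 in wild-type mice).

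Lateral wall genes separated the 2 basal repeats from each other. All 9 spiral ligament fibrocyte genes lay lower in both basal libraries than in the apex (30.4% of all genes did), 7 of them at an adjusted p under 0.05 (6.70%). Only Emilin2, an extracellular matrix glycoprotein, was called (460 and 318 against 31.7 and 5.85, −4.68, adjusted p = 0.00435). Coch, cochlin, the main secreted protein of fibrocytes, read 3813 and 3061 in the apex and 1116 and 425 in the base (−2.31, adjusted p = 0.0282). Otos, otospiralin, read 1743 and 2987 in the apex, and 848 in basal repeat 1 but 4.43 in repeat 2. Of the stria marginal cell genes, 11 of 12 were tested, none was called and 2 passed at 0.05 towards the apex (6.70% of all genes did). Atp1b2, a sodium pump subunit, read 216 and 482 against 217 and 83.6. Slc12a2, the sodium-potassium-chloride cotransporter, read 126 and 239.6 against 121 and 54.4. Of the melanocyte and strial intermediate cell genes, 10 of 11 were tested and 1 was called higher in the apex, the receptor gene Met (16.5 and 21.4 against 5.45 and 2.58). Dct, a melanin enzyme, read 194 and 586 in the apex, 158 in basal repeat 1 and 0.0646 in repeat 2. The strial and fibrocyte genes thus stayed measurable in basal repeat 1 and were near 0 in repeat 2 for several members. The summed fibrocyte level was 2759 in basal repeat 1 and 483 in repeat 2, against 8451 and 8715 in the apex. That of marginal cells was 814 and 218 in the base against 1230 and 2242 in the apex. Without basal repeat 2 the fibrocyte median was −1.60 in place of −4.17. In the wild-type mice the marginal cell median was 1.05, opposite to the −2.34 of the homozygous mice, with none of the 11 genes called in the test of the difference.

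Neuronal genes were higher in the homozygous base. Of 30 spiral ganglion neuron genes 27 were tested, 5 were called higher in the base and none higher in the apex, and 12 passed at 0.05 (7.32% of all genes did). Above both apical libraries lay 25 (30.3% of all genes did). The median was 2.85, against −1.02 in wild-type mice. The 3 members with the highest means were the neurofilament genes Nefm, Nefh and Nefl, whose products fill large axons, and they did not pass. Nefm read 34.5 and 49.1 in the apex and 599 and 619.9 in the base (3.85, adjusted p = 0.115), Nefh 33.5 and 52.6 against 647 and 498 (adjusted p = 0.163) and Nefl 24.6 and 62.1 against 416 and 594 (adjusted p = 0.157). The spread that enters these tests includes the wild-type base, where Nefm read 2.27 in repeat 1 and 187 in repeat 2. The called genes besides Kif5a were Kif5c, another kinesin (6.80 and 7.25 against 69.5 and 37.6, 2.70, adjusted p = 0.00438), Mapt, the tau protein of axons (5.52 and 8.40 against 41.9 and 31.2, adjusted p = 0.0085), Ntrk3, the receptor of neurotrophin 3 (6.33 and 4.68 against 16.3 and 16.6, adjusted p = 0.00565), and Grm8, a glutamate receptor (0.288 and 0.294 against 3.98 and 3.07, adjusted p = 0.00516). The summed level of the list was 359 and 599.7 in the apex, 631 and 223 in the middle turn and 3786 and 5112 in the base. Among wild-type libraries it was 1051 and 1435 in the apex, 2315 and 2599 in the middle turn, and 228 and 1510 in the base.

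Genes of the synaptic vesicle cycle, which releases and recovers transmitter, were called higher in the base in 10 of 32 tested cases of 33 listed. Of all genes 2.54% were. At 0.05, 23 passed towards the base (7.32% of all genes did). None was called higher in the apex, and 27 lay above both apical libraries (30.3% of all genes did). Snap25, the vesicle fusion protein of the highest level, read 39.6 and 88.1 against 738 and 844, yet with an adjusted p of 0.13. Dnm1, the dynamin of vesicle recovery, read 20.5 and 29.2 against 159.7 and 174 (2.72, adjusted p = 0.00511), Nsf, which takes fusion complexes apart, 14.9 and 20.4 against 124 and 119 (2.73, adjusted p = 0.00574), and Snap91, a clathrin adaptor, 9.87 and 10.8 against 58.4 and 50.2 (2.28, adjusted p = 0.00317). Other called members include Amph, Synj1, Dnm3, Syn2, Unc13a and Rims1. Slc17a8, the vesicular glutamate transporter of hair cells, read 9.87 and 5.54 in the apex and 0.905 and 0.756 in the base (adjusted p = 0.0797). It was 1 of 4 members with a difference towards the apex, while 28 had one towards the base. The list median was 2.67 in homozygous and −1.14 in wild-type mice, and 3 members were called in the test of that difference.

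Of 23 tested voltage-gated channel genes of 26 listed, 3 were called higher in the base, Kcna1, Cacna1a and Kcna6 (2.54% of all genes were). At 0.05, 14 passed towards the base and 1 towards the apex, beside 7.32 and 6.70% of all genes. Kcna1, a potassium channel subunit found beside the nodes of myelinated axons, read 15.4 and 11.3 against 109 and 44.7 (2.32 ± 0.43, adjusted p = 0.00909). Cacna1a, the pore of P/Q-type calcium channels, read 1.42 and 1.40 against 11.9 and 6.19, and Kcna6 1.18 and 0.966 against 7.55 and 6.37. In 20 of the 23 genes both basal libraries were above both apical ones, as in 30.3% of all genes.

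Myelin genes were higher in the base like the neuronal ones. All 22 genes of the list for Schwann cells and myelin were tested, 7 were called higher in the base and 15 passed at 0.05 (7.32% of all genes did). Above both apical libraries lay 20 (30.3% of all genes did), and the median was 1.64. Prx, periaxin of the myelin sheath, read 39.7 and 40.3 against 128 and 151 (1.77, adjusted p = 0.00516). Egr2, the transcription factor of myelinating Schwann cells, read 6.89 and 8.59 against 20.2 and 18.5 (1.23, adjusted p = 0.00762), and Dhh, their signal to the nerve sheath, 2.55 and 3.11 against 8.67 and 10.7. Gjc3, connexin 29 of Schwann cells, Cldn19, a claudin of peripheral myelin, and Gldn, gliomedin of the nodes, were called too. Mbp, myelin basic protein of central and peripheral myelin, read 225 and 472 against 4045 and 6599.5 (3.98, adjusted p = 0.0459). Sox10, the factor shared by the whole glial lineage, read 77.6 and 75.8 against 52.7 and 41.3 (adjusted p = 0.213).

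Markers of oligodendrocytes, the myelin cells of the brain, were present in the basal libraries beside the neuronal and myelin genes. All 10 lay above both apical libraries, where 30.3% of all genes lay, with a median of 3.88. None was called and none passed at 0.05. Mobp read 0.431 and 7.73 in the apex and 192 and 266 in the base (adjusted p = 0.107), Mog 0.138 and 0.996 against 69.0 and 114 (adjusted p = 0.0682) and Hapln2 0.0937 and 0.241 against 23.2 and 32.5 (adjusted p = 0.06). Several of these genes entered the test through the base alone. Their summed level was 353 and 532 in the homozygous base, 4.02 and 16.3 in the apex, 9.23 and 6.69 in the wild-type apex, 8.47 and 344 in the wild-type base, and 1128 and 19.9 in the wild-type middle turn. In the wild-type base and middle turn, libraries of the same group thus differed widely in these markers. Of the 8 astrocyte markers none was called, 4 lay above both apical libraries (30.3% of all genes did) and 3 below (30.4%). Gfap read 0.809 and 5.36 in the apex and 149 and 250 in the base (adjusted p = 0.111, limma). Aldoc, a glycolytic enzyme, read 34.0 and 28.3 against 61.0 and 95.6. The part of the oligodendrocyte markers in the neuronal and myelin results was not tested.

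**Figure D3:**
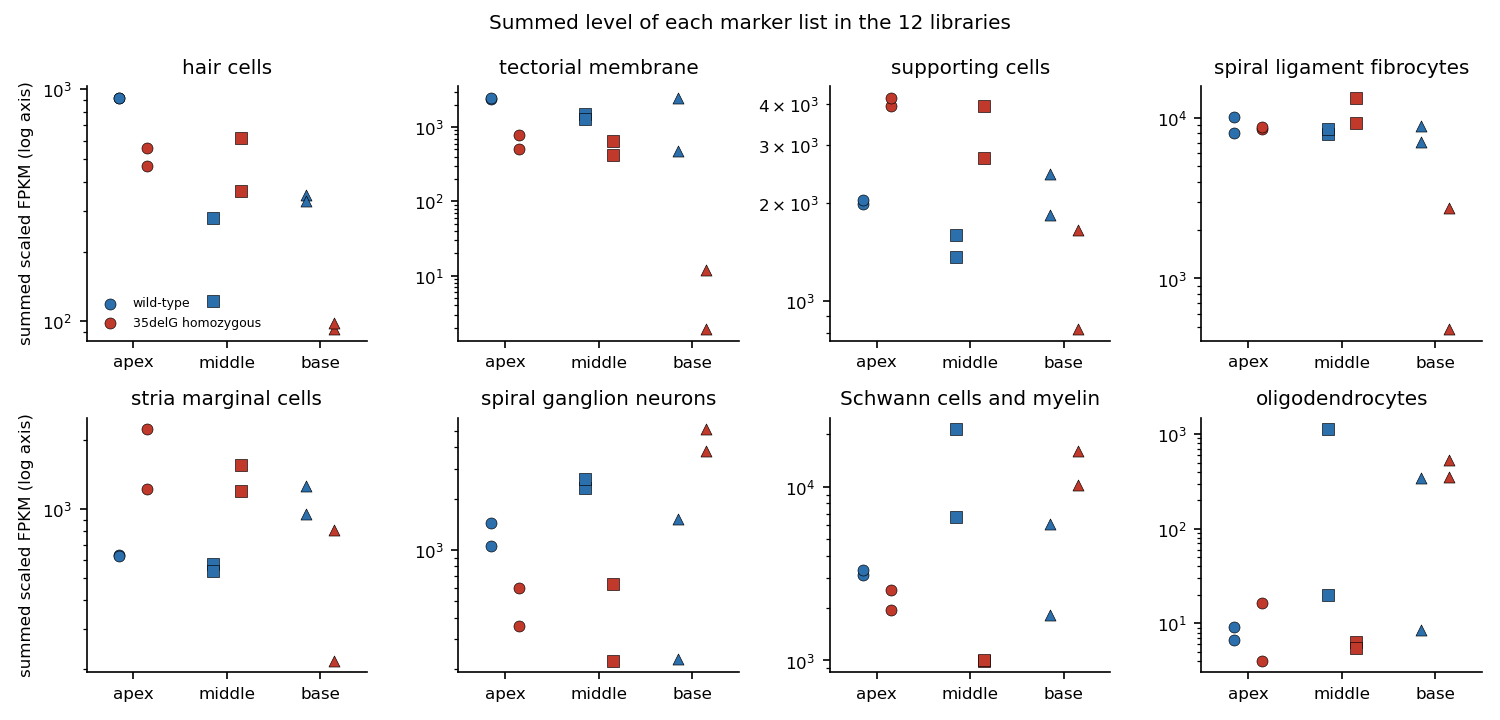
Summed scaled FPKM of 8 marker lists, on log axes, in the apex, middle turn and base; each point is 1 library, coloured by genotype. The homozygous basal libraries are lowest for hair cells (92.4 and 98.5) and the tectorial membrane (12.1 and 1.90) and highest for neurons (3786 and 5112).

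Of 16 connexin genes 9 were tested. Gjc3 was called higher in the base, with 16.0 and 18.2 against 61.3 and 62.8 (1.80, adjusted p = 0.00853), and Gjb2 and Gjb6, the connexins of the cochlear epithelium, passed at 0.05 towards the apex. The list median of 1.80 is that of Gjc3 itself, and the members above it are connexins of glia and neurons, such as Gjb1 of Schwann cells (3.39 and 5.03 against 29.4 and 47.3, adjusted p = 0.0182). Gjb1 was chosen after its values were seen.

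Among the candidate genes of the sound frequency map, 12 of 14 were tested. Of these, 4 were called higher in the apex, Tectb, Slc26a5, Fst and Rdh10, beside 2.75% of all genes, and none higher in the base. Tectb and Slc26a5 are also counted in the tectorial membrane and hair cell lists above. Fst, follistatin, an activin antagonist that is graded along the duct, read 49.4 and 24.2 against 2.07 and 0.674 (−3.98 ± 0.63, adjusted p = 0.00601), and Rdh10, an enzyme of retinoic acid synthesis, 8.39 and 6.58 against 3.22 and 2.91 (−1.06 ± 0.17, adjusted p = 0.0061). Sncg, a synuclein of neurons, read 9.54 and 19.3 against 26.9 and 272, and Calb1, a calcium buffer, 5.81 and 5.46 against 6.12 and 55.8, so that both separated the basal repeats more than the turns. In wild-type mice the difference was −1.38 for Fst and 0.03 for Rdh10.

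Other lists showed few calls. Of the 20 genes of cholesterol synthesis none was called, 15 lay above both apical libraries (30.3% of all genes did), and the median was 0.71. Hmgcs1, which makes the precursor of the pathway, read 37.7 and 47.2 against 122 and 187 (1.81, adjusted p = 0.0408). Of the 10 tested calcium pump and release channel genes of 13, none was called, and Atp2a2, the pump of the endoplasmic reticulum, read 57.1 and 54.4 against 130 and 78.5. Of 11 tested cartilage genes of 13, Col9a2 was called higher in the apex (269 and 203 against 78.0 and 47.6, −1.92, adjusted p = 0.00943). Emcn, an endothelial sialomucin, was the only call of 16 endothelial and pericyte genes (70.7 and 58.5 against 16.8 and 9.67, −2.25, adjusted p = 0.00401), and the list's median was −0.06. Nfatc1, a factor of osteoclasts, was 1 call among 5 tested osteoclast genes of 10, and Ier3 1 call among 14 tested immediate early genes of 16, both higher in the apex. No gene was called among 14 for osteoblasts and osteocytes, 13 of 14 tested for macrophages, 10 of 12 for neutrophils, 5 of 12 for erythroid cells, 4 of 10 for B lineage cells, 5 of 10 for motile cilia, 5 of 11 for proliferating cells and 13 mitochondrial messenger RNAs. None of 12 skeletal muscle genes passed the filter. The medians of osteoblast, macrophage and mitochondrial genes were 0.11, 0.21 and 0.30. Among blood cell genes apical repeat 2 stood out from the other 3 libraries, as in S100a9, a neutrophil protein, with 179 against 44.1 to 69.1.

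Whether the difference between turns differs between genotypes was tested in the same fit. The difference of the differences was called for 183 genes (1.25%), 122 with a larger and 61 with a smaller value in homozygous mice, and 4414 genes had an unadjusted p under 0.05. In wild-type mice alone, 5 genes were called between base and apex, 1 higher and 4 lower in the base, and 2947 had an unadjusted p under 0.05. Of all 14677 genes tested, 7706 were higher in the wild-type apex by sign and 6968 higher in the wild-type base. Beside this, 352 of the 373 genes called higher in the homozygous base were lower in the wild-type base by sign. Of these 373, 106 were called in the difference, with a median of 1.71 in homozygous and −0.56 in wild-type mice. Of the 404 higher in the homozygous apex, 264 were also higher in the wild-type apex by sign. Among these 404, 39 were called in the difference, with medians of −1.79 and −0.28. Levels in the wild-type middle turn were above those of the wild-type base for leading genes of the homozygous base, with 46.8 and 45.1 for Kif5a and 19.4 and 17.5 for Sgpp2. The count of 183 rests on single libraries. It fell far when any apical or any middle turn repeat of either genotype was left out, although the middle turn is not in this contrast. It also fell without wild-type basal repeat 1 and rose far without wild-type basal repeat 2.

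Among the genes called in this test, Kcna1 had the largest difference towards the homozygous base, with 29.3 and 43.4 in the wild-type apex and 8.81 and 7.95 in the wild-type base, and a log2 difference between genotypes of 4.29 ± 0.60 (SE, adjusted p = 0.00859, limma). Sgpp2, with 10.6 and 15.0 in the wild-type apex and 3.60 and 9.11 in the base, followed with 4.09 ± 0.61 (adjusted p = 0.00938), and Dnm1, with 48.4 and 62.1 against 16.5 and 33.5, with 3.90 ± 0.54 (adjusted p = 0.00831). All 3 were higher in the base of homozygous and lower in the base of wild-type mice. Unc80, a subunit of a sodium leak channel, and Snord64, a small nucleolar RNA, complete this side. Snord64 is shorter than the reads, so its FPKM are uncertain. Towards the homozygous apex, Tecta led with −5.83 ± 0.73 (adjusted p = 0.00642). Wfdc2, a secreted protease inhibitor, read 102 and 75.0 in the homozygous apex and 9.99 and 3.48 in the base, but 44.9 and 39.6 in the wild-type apex and 94.1 and 75.4 in the base, a difference of −4.64 ± 0.54 (adjusted p = 0.00591). Kcne4, a potassium channel regulator, read 14.6 and 19.7 against 4.74 and 2.44 in homozygous mice and 0.213 and 0.212 against 5.46 and 3.19 in wild-type mice. Scg2, a secretogranin of secretory granules, read 119 and 35.2 against 2.57 and 3.15, and 0.587 and 0.839 against 4.07 and 1.62. In Wfdc2 and Kcne4 the turns do not overlap in either genotype and are in opposite order.

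**Figure D4:**
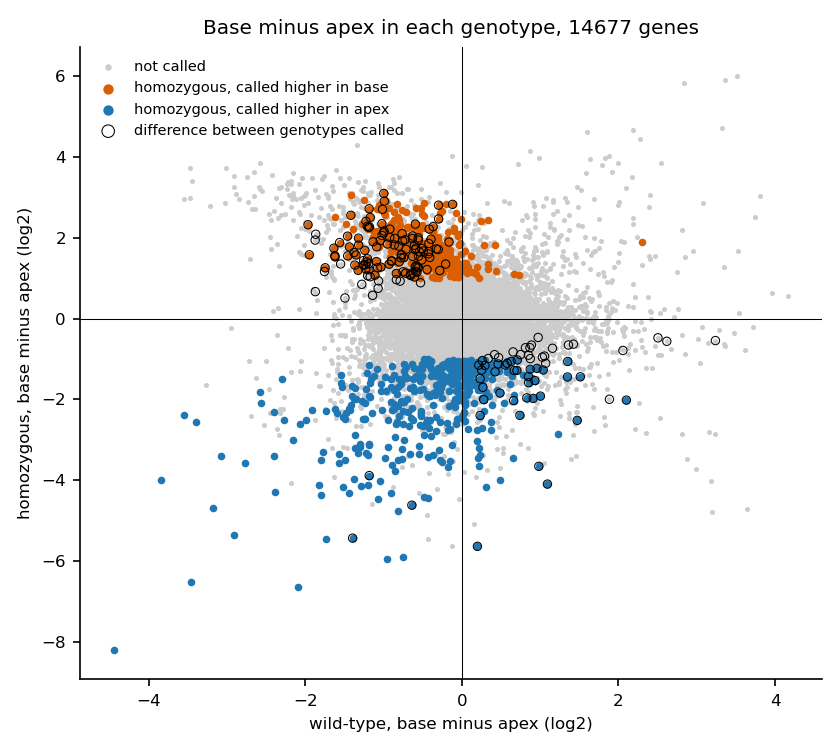
Log2 difference of base minus apex in wild-type (x axis) and homozygous (y axis) mice for the 14677 genes tested; orange and blue points are the 373 and 404 genes called in homozygous mice, and open circles the 183 genes called in the test of the difference. Most orange points lie left of 0 on the x axis, and the blue points spread to both sides.

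**Figure D5:**
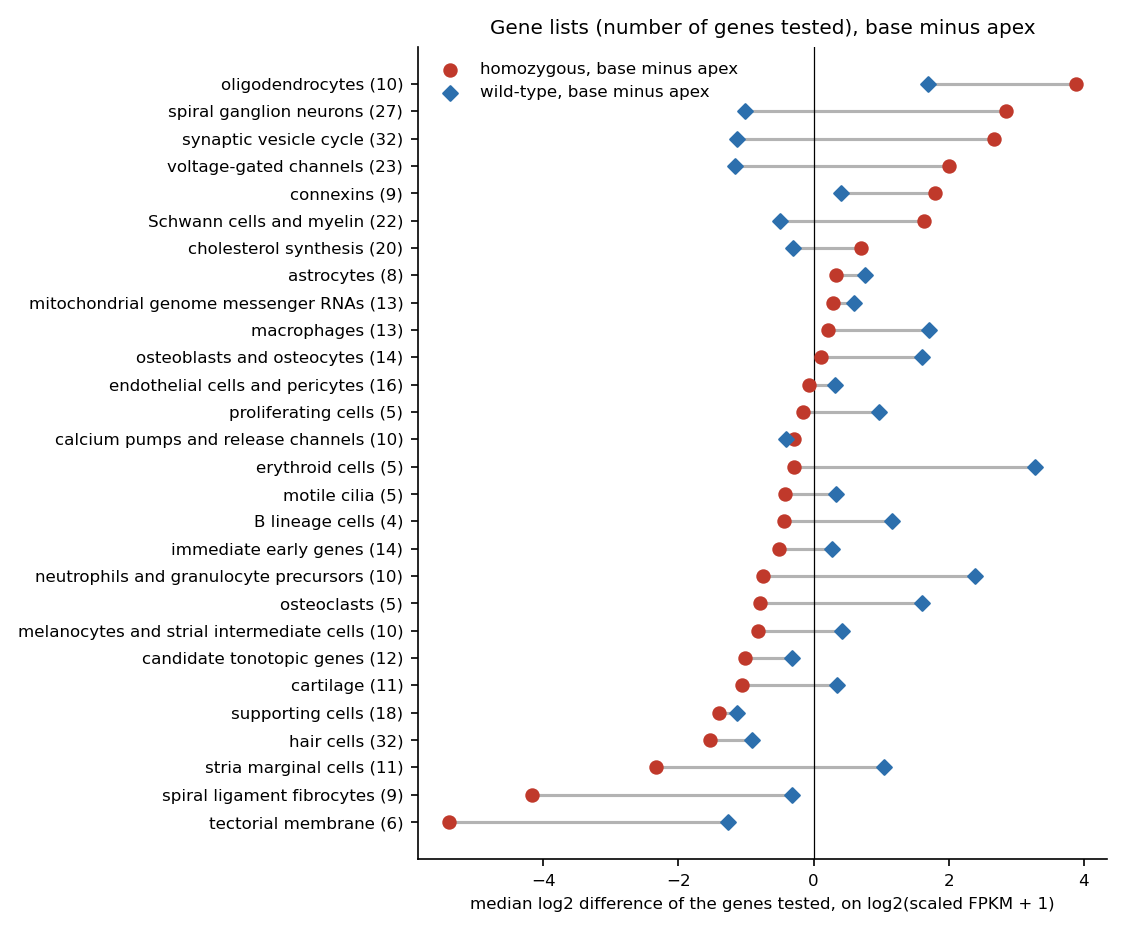
Median log2 difference of base minus apex of each gene list in homozygous (circles) and wild-type (diamonds) mice, with the number of genes tested. Neuronal and synaptic vesicle lists lie at 2.85 and 2.67 in homozygous and at −1.02 and −1.14 in wild-type mice, and tectorial membrane genes lie lowest in both genotypes.

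The middle turn of the homozygous cochlea was placed on the apical side for most called genes. Of the 373 genes higher in the base, the middle mean was nearer to the apical than to the basal mean in 372 and beyond the apical mean in 279, and it lay between both means in 94. Of the 404 genes higher in the apex, it was nearer to the apex in 377 and between both means in 338. Over all 14677 genes 79.0% were nearer to the apex. Tectb (29.7 and 49.9) and Tecta (6.78 and 11.9) lay between the turns, whereas Kcnt1 (1.62 and 0.953) was at the apical level. For most called genes the larger step was thus between the middle and the basal section.

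Counts of genes whose libraries do not overlap were large in both directions and say little of a list by themselves. In 4444 genes (30.3%) both basal libraries were above both apical ones, and in 4463 (30.4%) both were below. Beside these shares stand 25 of 27 neuronal, 27 of 32 synaptic vesicle, 20 of 23 channel, 20 of 22 myelin, 10 of 10 oligodendrocyte and 15 of 20 cholesterol synthesis genes above. Below stand 28 of 32 hair cell, 6 of 6 tectorial membrane, 9 of 9 fibrocyte and 13 of 18 supporting cell genes. The lists were chosen with earlier results of these data known, so the counts are descriptions.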

How the data were processed

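RNA of cochlear sections was sequenced in pairs of reads on a NovaSeq for the authors, with 1 library for each genotype, turn and repeat. Per the submitters' processing notes, fastp 0.20.0, STAR 2.7.3a, featureCounts 2.0.0 and StringTie 2.0 were used with mm10 (GRCm38). The deposited table holds the FPKM the authors calculated with StringTie, in which transcript length and library size are already divided out. Read counts were not used here, so depth and counting error cannot be given. No column was left out. The members and gene lists were chosen with earlier results of these data known.

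Each library was scaled by median of ratios, with factors of 0.917 to 1.06 taken from the 11552 genes that reach 1 FPKM in every one of the 12 libraries. Genes entered if 2 or more of the 4 homozygous apical and basal libraries had 1 FPKM (14677 genes). The scale was log2(scaled FPKM + 1). A limma fit (version 3.58.1, in R 4.3.3) over all 12 libraries gave each of the 6 combinations of genotype and turn its own mean. It used a mean-variance trend in eBayes, had 6 residual degrees of freedom besides a median of 2.75 from the prior, and was two-sided, with Benjamini-Hochberg adjustment over the genes. Fold changes on this scale understate changes of genes near 1 FPKM. To be called, a gene had to have an adjusted p below 0.01 and differ by more than 2-fold. The contrasts were base minus apex in each genotype and the difference of both. The fit was tested on simulated data.

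Named genes are Gjb2 and Gjb6, the 12 largest called differences in each direction without overlap whose higher turn averaged 5 scaled FPKM or more, the 3 members of highest mean and the called members of each list, and the 5 largest called differences between genotypes in each direction. Other genes named were chosen after their values were seen. Some of these genes are not reported here. The 29 lists were compiled by hand from general knowledge of the tissue and described by counts and medians. Promoters were matched by symbol to RefSeq entries on GRCm38.p6, and the oligos were read from the study's supplementary list. Python 3.11.15 with matplotlib 3.10.9 drew the figures.

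The alternatives tried comprise a pseudocount of 0.1 or 0.01, no filter or one of 5 FPKM, FPKM as deposited, scaling over the 4 libraries alone, quantile normalization, fits of only the 4 or the 6 homozygous libraries, library weights, no trend, a replicate block, a limit of 0.05 on the adjusted p, calls without a minimum fold, and each library left out. Recomputing every alternative at 0.05 was chosen after seeing the data.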

Additional observations from a re-analysis of the deposited data

Results flagged for a closer look

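The 10 genes with the largest called differences between genotypes are listed here because base minus apex differed between homozygous and wild-type mice in a test of that difference itself (limma, contrast of both differences, adjusted p under 0.01). The log2 difference between genotypes was 4.29 for Kcna1, 4.09 for Sgpp2, 3.97 for Unc80, 3.95 for Snord64 and 3.90 for Dnm1, all towards the homozygous base. It was −5.83 for Tecta, −5.19 for Scg2, −4.64 for Wfdc2, −4.12 for Kcne4 and −4.04 for Otog, all towards the homozygous apex. Unc80 read 1.34 and 1.62 in the homozygous apex and 20.9 and 8.67 in the base, against 4.36 and 6.49 and 1.08 and 1.70 in wild-type mice. Otog was higher in the apex in both genotypes, with 54.6 and 50.6 in the wild-type apex and 15.5 and 24.1 in the wild-type base, and differed in size only. Across the alternatives the adjusted p of these 10 genes ranged from 0.00195 to 0.0574, and each gene kept its sign.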

How the results depend on the processing

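Gjb2, Gjb6, the 12 genes in each direction and the 10 differences between genotypes kept their signs under every alternative that was run, while the single members of the lists were not refitted. The counts of genes called higher in the base, higher in the apex and in the difference between genotypes, 373, 404 and 183, moved as follows where they left a 1.5-fold range. With a pseudocount of 0.1 they were 213, 370 and 107, and with 0.01 they were 192, 344 and 109. Without a filter they were 6, 7 and 13, and a filter of 5 FPKM gave 304 for the difference. Fits of only the 4 libraries gave 203 and 66, and of only the 6 homozygous libraries 240 and 139. Quantile normalization gave 385 and library weights 94 for the difference. An adjusted p under 0.05 gave 1074, 983 and 1851. No source used here links the repeat numbers to shared cochleae, and the data did not show one pairing throughout: the deviations of same-numbered homozygous libraries correlated at 0.28 for apex and base but at −0.413 and −0.266 with the middle turn. With the replicate block (number within genotype) the 3 counts were 0, and at an adjusted p under 0.05 they were 952 and 819. With 1 library left out, the lone library of a group being assumed to vary like the others, the counts ranged from 0 to 802, 0 to 800 and 0 to 1168.

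Of the 26 genes Gjb2, Gjb6 and the 12 in each direction, 24 were called, 15 with a pseudocount of 0.01, 3 without a filter, 15 with the 6 homozygous libraries, 0 with the replicate block and 0 to 24 with 1 library left out. The number of lists with a median above 0 was 11 and ranged from 9 to 14 with 1 library left out. At an adjusted p under 0.05, no filter gave 591 and 619, and leaving out 1 library gave 82 to 1256 and 137 to 1167. The causes were not tested. The depth of the libraries is unknown, so genes near 1 FPKM cannot be given a counting error, and 2 libraries a group limit every p.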

Other observations

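The gene families below were taken by their symbols after the values had been seen and are given without a test, beside 2.54% of all genes called higher in the base and 2.75% higher in the apex. Of 20 tested kinesin heavy chain genes 5 were called higher in the base, Kif1a, Kif3c, Kif5a, Kif5c and Kif21a, and none higher in the apex. Of 20 tested cytosolic aminoacyl-tRNA synthetase genes, which charge tRNAs with amino acids, 3 were called higher in the base, Aars, Gars and Yars, and the family median was 0.47 in homozygous and 0.10 in wild-type mice. Of 6 tested 14-3-3 genes Ywhag and Ywhah were called higher in the base, and so were 2 of 20 tested subunits of the proton pump V-ATPase, Atp6v0a1 and Atp6v1g2.

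Calls in the other families were mostly towards the apex. Of 16 tested claudin genes, which seal tight junctions, 5 were called higher in the apex and 1 higher in the base, the myelin claudin Cldn19, with a family median of −1.89 in homozygous and 0.14 in wild-type mice. Of 6 tested Tmprss genes, serine proteases of epithelial surfaces, 4 were called higher in the apex, Tmprss3 among them, a gene of hair and supporting cells. Of 9 tested annexin genes 3 and of 12 tested S100 genes 3 were called higher in the apex, and none of either family higher in the base.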
